A study of Mus musculus with 8 samples.

Results

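Tshr, Gbe1, Tuba4a and BC018473 are 4 mouse genes whose RNAs were more abundant in the olfactory mucosa of every Emx2 knockout than in that of any littermate control. They were chosen on that separation, by the single-gene transcript cluster of each symbol on the array, and are 4 of 21789 clusters that carry exactly 1 gene symbol (19938 different genes). Their differences between the groups are therefore a description and carry no test. Each of the 4 genes had 1 cluster, so no choice between clusters was needed and no filter on low signal was applied.

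The samples were 8 mice at postnatal day 1, of a mixed 129 x C57BL/6J background, with total RNA of the olfactory mucosa of 1 mouse on each Affymetrix GeneChip Mouse Gene ST array. The 4 knockouts were OmpCre:Emx2(fl/fl), in which both copies of Emx2 are flanked by loxP sites. Of the 4 control littermates, controls 1 to 3 were OmpCre:Emx2(fl/+), with Cre and 1 floxed copy, whereas the label of control 4 was Emx2(fl/fl) with no Cre, so every mouse carried at least 1 floxed copy. OmpCre drives Cre recombinase from an insertion at Omp, a gene of mature olfactory sensory neurons (OSNs). Within the olfactory epithelium, recombination is thus expected in mature OSNs, and a reporter cross in the study labelled only some of them. The labels do not name litters, and the spread between mice is the only error measured.

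Emx2 encodes a homeodomain transcription factor of OSNs, the neurons that detect odorants through odorant receptors. The 4 genes belong to unrelated processes. Tshr encodes the receptor for thyrotropin (TSH), a G protein-coupled receptor of the leucine-rich repeat (LGR) family that is known from thyroid follicular cells, where it signals mainly through Gs and cAMP. Gbe1 encodes the glycogen branching enzyme, which adds branches to growing glycogen chains. Tuba4a encodes an alpha-tubulin, a subunit of microtubules, which unlike most alpha-tubulins is made without a carboxy-terminal tyrosine. BC018473 is annotated in RefSeq as a long noncoding RNA.

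Promoter windows in the RefSeq set of mouse assembly GRCm38.p6 cover 250 bases before to 50 bases after a gene's start. Windows matched 2 of the 4 genes, Gbe1 and Tuba4a. The 150 bases up to the start are shown 5′ to 3′ on the gene's strand for both, as the only ones of the 4 genes with a window. Capitals mark GGGCGG on the strand shown and, written as CCGCCC, on the opposite strand, and the Gbe1 stretch has no such match.
Gbe1 (chr16:70313799-70313948, plus strand): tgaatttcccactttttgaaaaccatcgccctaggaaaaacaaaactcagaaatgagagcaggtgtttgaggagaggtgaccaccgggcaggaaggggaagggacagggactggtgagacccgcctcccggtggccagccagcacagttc
Tuba4a (chr1:75219295-75219444, minus strand): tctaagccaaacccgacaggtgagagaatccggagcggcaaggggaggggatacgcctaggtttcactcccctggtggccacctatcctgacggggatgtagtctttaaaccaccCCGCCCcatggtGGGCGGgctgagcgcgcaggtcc

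Both windows were scanned on both strands for letters of homeodomain sites (TAATTA, and as a variant TAATTG), for those of Ebf-like sites (CCCNNGGG) and for the GC box (GGGCGG). Neither window held any of the homeodomain or Ebf-like letters. Among all 32851 windows of 300 bases, TAATTA occurred in 5.3%, the variant TAATTG in 8.0% and the Ebf-like CCCNNGGG in 13.7%. The GC box, present in 35.7% of windows, occurred in both. The Tuba4a window held 2 matches, which begin at positions 216 and 228 and do not overlap. The Gbe1 window held 1 match, at position 278, which lies after the gene's start and outside the stretch printed. GC content was 54.3% for Gbe1 and 62% for Tuba4a, against a median of 52.7% over all windows, and CpG dinucleotides numbered 14 and 24 against a median of 7.

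Emx2 mRNA had log2 signals of 10.25, 10.14, 10.34 and 10.14 in knockouts 1 to 4 and 10.83, 10.74, 10.58 and 10.89 in controls 1 to 4. Every knockout lay below every control (log2 difference -0.55 ± 0.08, limma unadjusted p = 7.37e-05, limma adjusted p = 0.201 over all clusters). Emx2 is the targeted gene, and the paper also reports less of its mRNA in this strain. All differences are knockout minus control on the log2 scale, from 4 mice per group, and the value after ± is the standard error (SE) of the difference except where it is called an SD. Array medians ranged from 8.64 to 8.68 and correlations between arrays from 0.985 to 0.994. Control 2 stood apart along principal component 1, which held 32.5% of the variance, with a score of 32.87 beside scores of -11.83 to 6.11 in the other arrays. The defining mRNA of mature OSNs, Omp, was present in all mice, at 12.60 to 12.91 in knockouts and 12.56 to 13.43 in controls. Because Cre is inserted at Omp, its signal may depend on the Cre genotype. Control 4, without Cre, was at 13.285, and control 1, with Cre, at 13.43. Omp is also among the mature OSN markers used below, and this dependence was not tested. Across all clusters limma called 0 at an adjusted p under 0.05 (0%). At an unadjusted p under 0.01 it counted 133 higher (0.61%) and 131 lower (0.601%) in knockouts, and at an unadjusted p under 0.05 it counted 1126. The methods' t-test called 0 after adjustment, with 105 higher and 98 lower at p under 0.01.

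Tshr log2 signals were 7.30, 7.41, 7.85 and 7.46 in knockouts 1 to 4, against 6.71, 6.67, 6.45 and 6.75 in controls 1 to 4. Knockout 3 was the highest mouse and control 3 the lowest, and 0.549 log2 separated the lowest knockout from the highest control. The group means were 7.51 ± 0.24 in knockouts and 6.65 ± 0.13 in controls (SD, n = 4 each). The difference was 0.86 ± 0.12, a fold of 1.82 (81.5% higher), and values ranged over 0.551 log2 in knockouts and 0.297 in controls. All Tshr signals lay under the array medians (8.64 to 8.68). Array background was not measured here, so no limit of detection can be given for them. In a bulk tissue, more cells of a type and more RNA per cell cannot be told apart.

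Gbe1 log2 signals were 10.55, 10.53, 10.81 and 10.55 in knockouts, against 10.14, 10.13, 10.20 and 10.21 in controls. Knockouts 1, 2 and 4 lay within 0.02 of each other and knockout 3 stood above them, while the controls were spread over only 0.077 log2. The means were 10.61 ± 0.14 in knockouts and 10.17 ± 0.04 in controls (SD). The difference was 0.44 ± 0.07, a fold of 1.36, and the gap between the groups was 0.327.

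Tuba4a log2 signals were 11.27, 11.33, 11.46 and 11.29 in knockouts, against 10.86, 10.86, 10.82 and 11.05 in controls. The highest control was control 4, the mouse without Cre, and the gap of 0.216 between the groups was set by it. The means were 11.34 ± 0.08 in knockouts and 10.90 ± 0.10 in controls (SD). The difference was 0.44 ± 0.07, a fold of 1.35. With controls 1 to 3 alone, the gap was 0.407 and the difference 0.49.

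BC018473 log2 signals were 10.78, 10.92, 10.23 and 11.01 in knockouts, against 9.71, 7.94, 7.62 and 8.51 in controls. The controls covered 2.10 log2, with control 1 far above the other controls, and knockout 3 was the lowest knockout. The means were 10.73 ± 0.35 in knockouts and 8.45 ± 0.92 in controls (SD). The difference was 2.29 ± 0.41, a fold of 4.89, and was the largest increase among all 21789 clusters. The gap between the groups was 0.514, and it was 1.72 without control 1 and 1.07 without knockout 3.

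**Figure D1:**
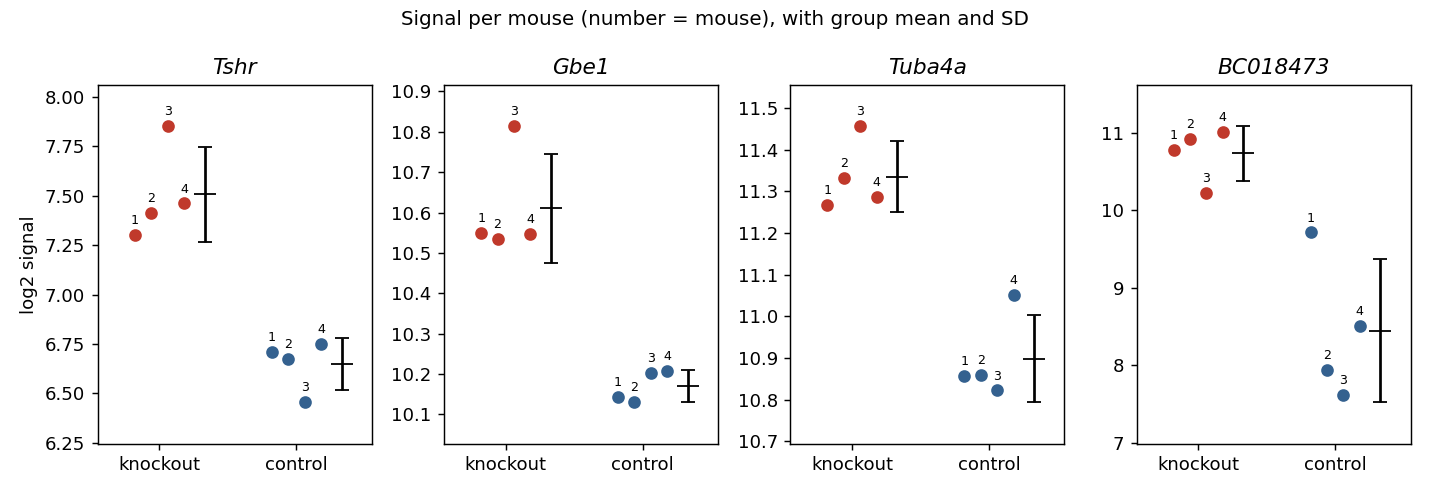
Log2 signal of Tshr, Gbe1, Tuba4a and BC018473 in each mouse (points, numbered 1 to 4 in each group), knockouts left of controls, with the group mean (bar) and SD (whiskers); each panel has its own vertical axis, which does not start at 0. No control reaches the lowest knockout in any panel, knockout 3 is the highest mouse for Tshr, Gbe1 and Tuba4a but the lowest knockout for BC018473, and the BC018473 controls run from 7.62 to 9.71.

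Complete separation of the groups in this direction was found for 353 of the 21789 clusters (1.62%), and this separation is what chose the 4 genes. The opposite separation was found for 322 clusters (1.48%). Random order of 4 and 4 arrays also separates some clusters completely, so separation on its own is no test. When the 353 clusters were ordered by the gap between the lowest knockout and the highest control, Tshr was 2nd, BC018473 4th, Gbe1 8th and Tuba4a 12th. The 1st was E330013P04Rik (gap 0.802). Just inside the threshold were Tra2b (gap 6e-05, difference 0.06) and Pik3r1 (gap 8e-05, difference 0.12), and just outside were Vmn1r66 (gap 0, difference 0.12) and Mastl (gap -6.8e-05, difference 0.28). By the size of the increase, BC018473 ranked 1st, Tshr 6th, Gbe1 59th and Tuba4a 61st. Under quantile normalization the gaps were 0.532 for Tshr, 0.311 for Gbe1, 0.204 for Tuba4a and 0.492 for BC018473, and after scaling to mature OSN markers they were 0.759, 0.303, 0.459 and 0.610 in the same order. Leaving out mice can only keep or widen a gap by which the genes were chosen.

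Tshr, Gbe1 and Tuba4a varied together among mice of the same group to a degree that depended on 1 mouse. As deviations from the group mean, knockout 3 was the highest knockout for Tshr (0.34), Gbe1 (0.20) and Tuba4a (0.12), and control 4 the highest control for Tshr (0.10), Gbe1 (0.04) and Tuba4a (0.15). Over the 8 arrays, with the group means removed, Pearson's r was 0.75 for Tshr with Gbe1, 0.77 for Tshr with Tuba4a and 0.67 for Gbe1 with Tuba4a. Without knockout 3 these were -0.32, 0.62 and 0.40, so the relation of Tshr and Gbe1 rested on that mouse. By r over all 8 arrays with the group means removed, Tuba4a ranked 988th and Gbe1 1144th of all clusters in likeness to Tshr. Tuba4a ranked 1678th in likeness to Gbe1, so many other clusters varied more closely with these genes. These values describe 8 arrays, each of which gives all 4 genes, and were not tested.

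BC018473 ordered the 8 mice otherwise. It deviated by -0.51 in knockout 3 and by 1.27 in control 1, and with the group means removed its r was 0.02 with Tshr, -0.42 with Gbe1 and -0.10 with Tuba4a. Without knockout 3 these were 0.61, -0.35 and 0.15, so the low r with Tshr rested on that mouse too. Emx2 was itself the highest in knockout 3 among knockouts (deviation 0.12) and in control 4 among controls (0.13). Within groups its r was 0.72 with Tshr, 0.72 with Tuba4a, 0.44 with Gbe1 and 0.33 with BC018473, and without knockout 3 these were 0.66, 0.61, -0.11 and 0.61. Between groups Emx2 lay lower in knockouts and the 4 genes lay higher.

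**Figure D2:**
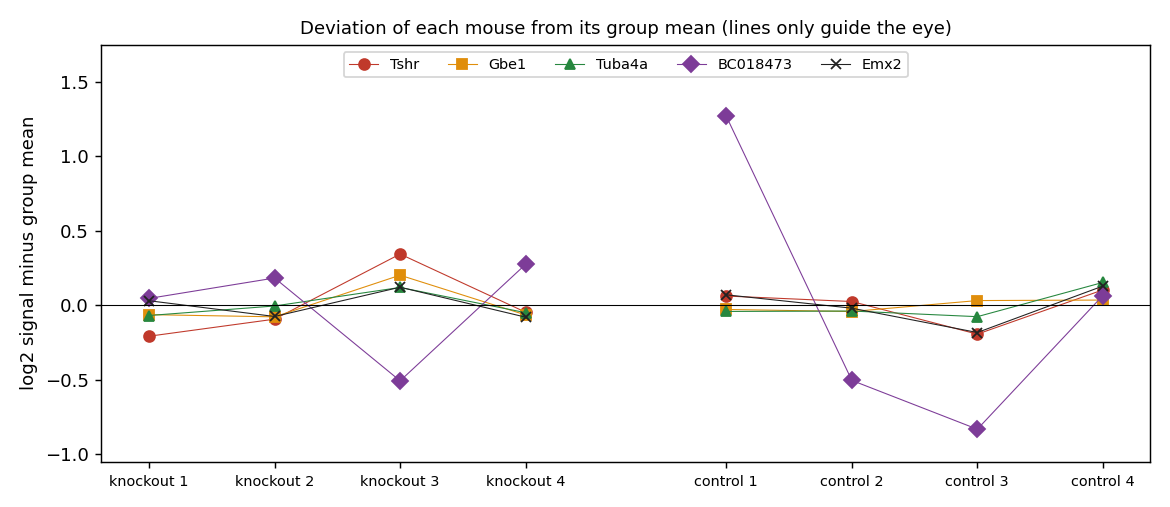
Deviation of each mouse from its group mean (log2 signal minus group mean) for Tshr, Gbe1, Tuba4a, BC018473 and Emx2, with knockouts 1 to 4 left of controls 1 to 4; lines join mice only to guide the eye. Tshr, Gbe1, Tuba4a and Emx2 all peak in knockout 3 among knockouts and in control 4 among controls, whereas BC018473 is low in knockout 3 (-0.51) and high in control 1 (1.27).

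The genes with the patterns most like each of the 4 were taken by Pearson's r over the 8 arrays, a measure that shares the contrast by which the 4 were chosen. Those nearest Tshr were Dzank1 (r = 0.973, difference 0.22), Tuba4a (0.971) and Sv2b, a synaptic vesicle glycoprotein (0.971, difference 0.32). Those nearest Gbe1 were Trpa1, a cation channel of sensory neurons (0.981, difference 0.84), Ly75 (0.972, difference 0.18) and Tshr (0.967). Trpa1 had log2 signals of 7.45, 7.54, 8.11 and 7.48 in knockouts, against 6.84, 6.79, 6.91 and 6.68 in controls, and like Gbe1 it was highest in knockout 3. Those nearest Tuba4a were Gpc5, a cell surface proteoglycan (0.982, difference 0.40), Tshr (0.971) and 1500015L24Rik (0.965, difference 0.35). Those nearest BC018473 were Ino80, a chromatin remodelling ATPase (0.964, difference 0.08), Rexo4 (0.959, difference 0.08) and Crem, a cAMP-responsive transcription factor (0.954, difference 0.23), all with differences far smaller than its own.

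The signals of Y-linked genes split the mice across the groups. The study used both sexes, and the labels do not give the sex of a mouse. The mean log2 signal of Eif2s3y, Kdm5d and Uty was 7.05, 7.27, 10.72 and 7.51 in knockouts 1 to 4, against 8.09, 10.63, 10.53 and 10.57 in controls 1 to 4. Knockout 3 and controls 2 to 4 were therefore high, and knockouts 1, 2 and 4 and control 1 low. Xist, the RNA that coats the inactive X chromosome of females, was at 13.41, 13.52, 6.997 and 13.48 in knockouts and 13.47, 8.08, 10.30 and 10.35 in controls, so controls 3 and 4 had intermediate Xist together with high Y-linked signal. Control 1 had Eif2s3y at 8.61 and Uty at 8.28, above knockouts 1, 2 and 4 (7.35 to 7.75 and 6.91 to 7.47). The high and low mice are therefore not a clean split by sex, although each array is given as 1 mouse. The cause was not tested.

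BC018473 moved with this split within both groups. Its lowest knockout was the one with high Y-linked signal and its highest control the one with low Y-linked signal. Among the high mice it was 10.23 in knockout 3 and averaged 8.02 in the 3 controls (difference 2.21), and among the low mice it averaged 10.90 in the 3 knockouts and was 9.71 in control 1 (difference 1.19). When the Y-linked signal was added as a covariate, its difference was 1.65, against 2.29 without it. The differences of the other 3 genes were likewise larger among the high mice than among the low mice, at 1.23 and 0.68 for Tshr, 0.63 and 0.40 for Gbe1, and 0.54 and 0.44 for Tuba4a. The only high knockout was knockout 3, the highest mouse for these 3 genes. Unlike BC018473, they had larger differences with the covariate (1.00 for Tshr, 0.54 for Gbe1 and 0.51 for Tuba4a) than without it (0.86, 0.44 and 0.44). Each subset has 1 mouse in 1 of its groups, so the differences within subsets have no error. The part of the Y-linked split in the results was not tested beyond the covariate.

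**Figure D3:**
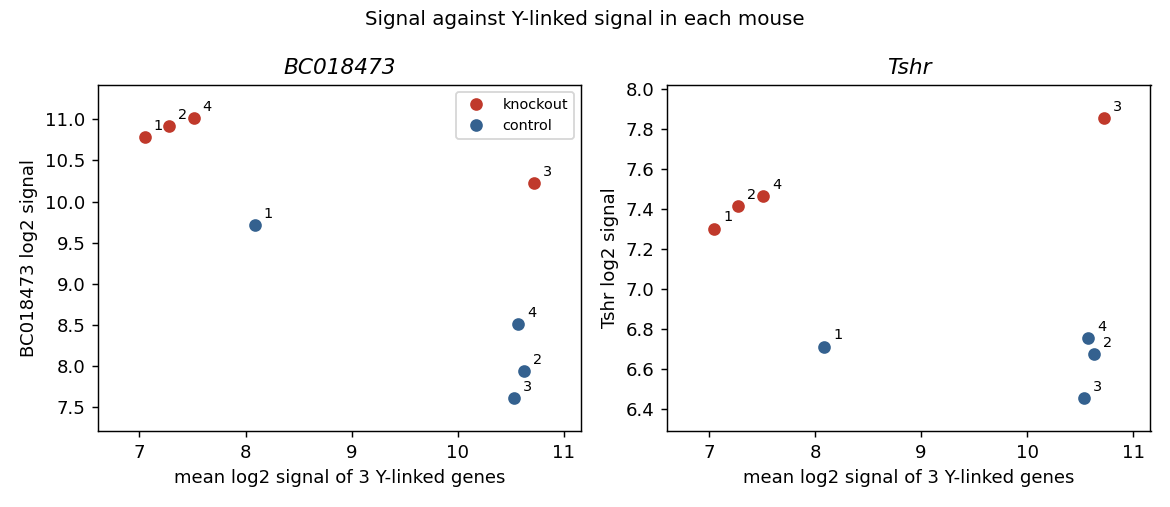
Log2 signal of BC018473 (left) and Tshr (right) against the mean log2 signal of 3 Y-linked genes in each mouse, knockouts in red and controls in blue, numbered within each group. For BC018473 the lowest knockout (3) lies at high Y-linked signal and the highest control (1) at low Y-linked signal, whereas the highest Tshr value, in knockout 3, lies at high Y-linked signal.

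Genes that work with Tshr, Gbe1 and Tuba4a were followed in 10 lists, from which the 4 genes themselves were left out. The lists were written with earlier results of these data known, so the shares below are a description and no test. Of 137 measured genes, 0 passed limma over all clusters (0%). At an unadjusted p under 0.01, 4 of 137 were higher in knockouts (2.92%, beside 0.61% of all clusters) and 0 were lower (beside 0.601%). At p under 0.05, 7 were higher (5.11%, beside 2.62% of all clusters) and 4 lower (2.92%, beside 2.55%). The median difference over the 137 genes was 0.001, beside 0.00235 over all clusters.

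The ligands of Tshr lay on both sides of 0, with 3 of 4 genes of higher mean (median 0.10). Tshb, the specific subunit of TSH, differed by 0.0046 ± 0.08 at a signal near 5.9 in both groups. Cga, the alpha subunit it shares with the gonadotropins, differed by 0.20 ± 0.39. Of thyrostimulin, the other known ligand, the subunit Gpha2 had log2 signals of 9.13, 9.002, 10.15 and 9.62 in knockouts and 8.68, 9.23, 8.72 and 9.07 in controls (difference 0.55 ± 0.25, limma adjusted p = 0.910), with overlap between the groups. The Gpha2 difference was 0.33 without knockout 3 and 0.96 with the Y-linked signal as covariate. Its partner Gphb5 differed by -0.04 ± 0.09.

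Among 6 LGR relatives of Tshr, 5 had a higher mean in knockouts (median 0.05). Rxfp1, a relaxin receptor that also couples to Gs, had log2 signals of 6.17, 6.32, 6.44 and 6.63 in knockouts and 6.01, 6.06, 6.20 and 5.91 in controls. Its difference of 0.35 ± 0.10 was among those at p under 0.01 but did not pass over all clusters (limma adjusted p = 0.794), and knockout 1 lay just under control 3. Lgr4, an R-spondin receptor, differed by 0.12 ± 0.05 (limma adjusted p = 0.910), and Fshr, the follitropin receptor and a close relative, by -0.04 ± 0.05.

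Of 29 G protein and cAMP genes, 21 had a higher mean in knockouts, with a median of only 0.01. Crem log2 signals were 8.40, 8.43, 8.39 and 8.40 in knockouts and 8.23, 8.18, 8.11 and 8.15 in controls, with no overlap. Its difference was 0.23 ± 0.04 (limma adjusted p = 0.373). Prkar2b, a regulatory subunit of cAMP-dependent protein kinase, had 10.69, 10.61, 10.53 and 10.67 in knockouts and 10.46, 10.47, 10.48 and 10.38 in controls. It did not overlap either (difference 0.18 ± 0.05, limma adjusted p = 0.743). The cAMP-degrading Pde4a differed by -0.16 ± 0.07 (limma adjusted p = 0.910). Of the genes that handle or answer to thyroid hormone, 4 of 13 had a higher mean (median -0.03). Hr, a corepressor that is itself a thyroid hormone target, was lower in every knockout than in any control (8.56 to 8.64 in knockouts, 8.67 to 8.88 in controls, difference -0.19 ± 0.06, limma adjusted p = 0.855). Ttr, a carrier of thyroid hormone, had the widest difference of the list (-1.01 ± 1.00), which came from a signal of 12.26 in control 4, where the other 7 mice were at 7.26 to 8.22. Members without a cluster of their own, among them Gnas and Prkaca, were not analysed here.

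The glycogen genes around Gbe1 lay on both sides of 0. Of 16 genes of glycogen synthesis 6 had a higher mean (median -0.04), and the smallest p belonged to Ppp1r3e, a glycogen-targeting subunit of protein phosphatase (difference -0.30 ± 0.15, limma adjusted p = 0.910). Of 12 genes of glycogen breakdown 7 had a higher mean (median 0.02), led by Phka2, a regulatory subunit of phosphorylase kinase (0.13 ± 0.05, limma adjusted p = 0.910). None of these 28 genes reached p under 0.01, beside 1.21% of all clusters, and so few genes cannot be told apart from that share.

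The other tubulins measured had differences from -0.18 to 0.12. Tuba1a, the main alpha-tubulin of young neurons, differed by -0.0047 ± 0.04 at 13.90 to 13.97 in knockouts and 13.93 to 13.98 in controls. Tuba3a differed by -0.0028 ± 0.06, Tuba3b by 0.04 ± 0.11 and Tubal3 by 0.03 ± 0.08, and the signs of Tuba1a, Tuba3a, Tuba3b and Tubal3 each turned under at least 1 other setting. Tuba8 differed by -0.18 ± 0.07 (limma adjusted p = 0.910). Tuba1b and Tuba1c had no cluster of their own, and near-identical coding sequences mean that probes of one alpha-tubulin may detect another. Of 11 beta- and other tubulins 3 had a higher mean (median -0.02), and the smallest p was that of Tubb2b (-0.11 ± 0.06, limma adjusted p = 0.910). The sign of Tubb2b turned under scaling to mature OSN markers.

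Among 28 tubulin folding and modifying enzymes, 14 had a higher and 14 a lower mean (median 0.001). Ttll11, which adds glutamate chains to tubulin, had log2 signals of 9.62, 9.77, 9.78 and 9.71 in knockouts and 9.50, 9.43, 9.44 and 9.53 in controls, with no overlap. Its difference was 0.25 ± 0.05 (limma adjusted p = 0.444). Of 13 microtubule-binding proteins 5 had a higher mean (median -0.04), with Map4 at 0.12 ± 0.04 (limma adjusted p = 0.876) and Stmn4, which sequesters tubulin, at -0.21 ± 0.09 (limma adjusted p = 0.910).

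**Figure D4:**
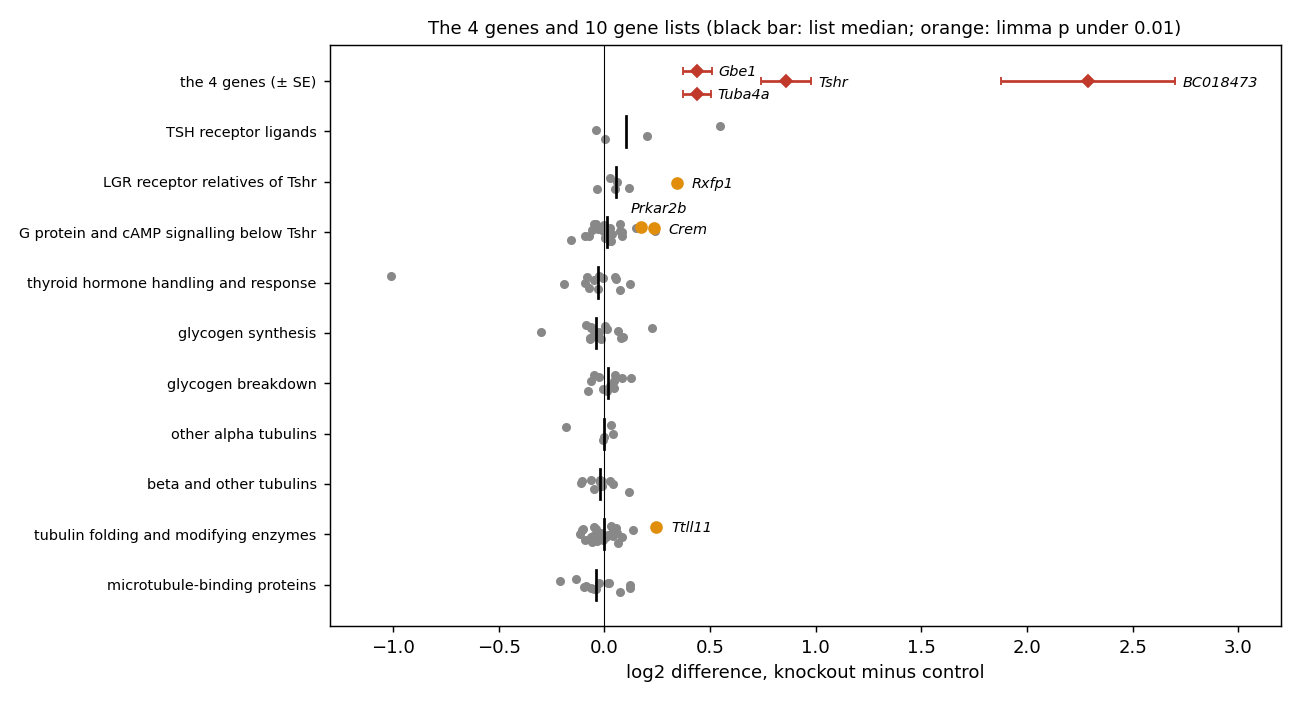
Log2 difference, knockout minus control, of the 4 genes (red diamonds with SE) above those of 137 genes in 10 lists (points), with each list's median as a black bar and genes at a limma p under 0.01 in orange. The list medians lie between -0.04 and 0.10, and the 4 orange genes (Rxfp1, Crem, Prkar2b and Ttll11) lie between 0.18 and 0.35, below all 4 red diamonds. The 4 red genes were chosen for being higher in knockouts, so their place above the lists is no test.

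The genes beside the 4 on their chromosomes were compared next, as up to 5 measured genes on each side in RefSeq order. Of 40 neighbours 21 had a higher mean in knockouts, the median difference was 0.004, 1 reached p under 0.01 (beside 1.21% of all clusters) and 4 reached p under 0.05 (beside 5.17%). Beside Tshr on chromosome 12, Cep128 differed by 0.09 ± 0.07 and Gtf2a1, a general transcription factor subunit, by 0.07 ± 0.04, and none of the 10 reached p under 0.05. Beside Tuba4a on chromosome 1, the kinase gene Stk16 differed by 0.01 ± 0.05 and the chaperone gene Dnajb2 by -0.03 ± 0.04. The signs of Stk16 and Dnajb2 each turned under another setting, and again none of the 10 reached p under 0.05.

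Beside Gbe1 on chromosome 16, 9 of 10 neighbours had a higher mean, with a median of 0.07. Of the 10, 1 (Robo2) reached p under 0.05, beside 5.17% of all clusters. Speer2 differed by 0.08 ± 0.08, Robo1, an axon guidance receptor, by 0.11 ± 0.05 (limma adjusted p = 0.910), and its relative Robo2 by 0.12 ± 0.05 (limma adjusted p = 0.910).

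Around BC018473 on chromosome 11, the neighbours on either side were lower on average. St6galnac2, a sialyltransferase gene, had log2 signals of 10.99, 11.09, 11.10 and 11.11 in knockouts and 11.33, 11.62, 11.29 and 11.47 in controls, with every knockout below every control. Its difference was -0.35 ± 0.08 (limma adjusted p = 0.483). On the other side St6galnac1, of the same enzyme family, differed by -0.17 ± 0.17. Mxra7 differed by -0.17 ± 0.05 (limma adjusted p = 0.831) and Snhg16, a small nucleolar RNA host gene, by 0.25 ± 0.09 (limma adjusted p = 0.910). With St6galnac2 these made 3 of the 10 at p under 0.05, beside 5.17% of all clusters.

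**Figure D5:**
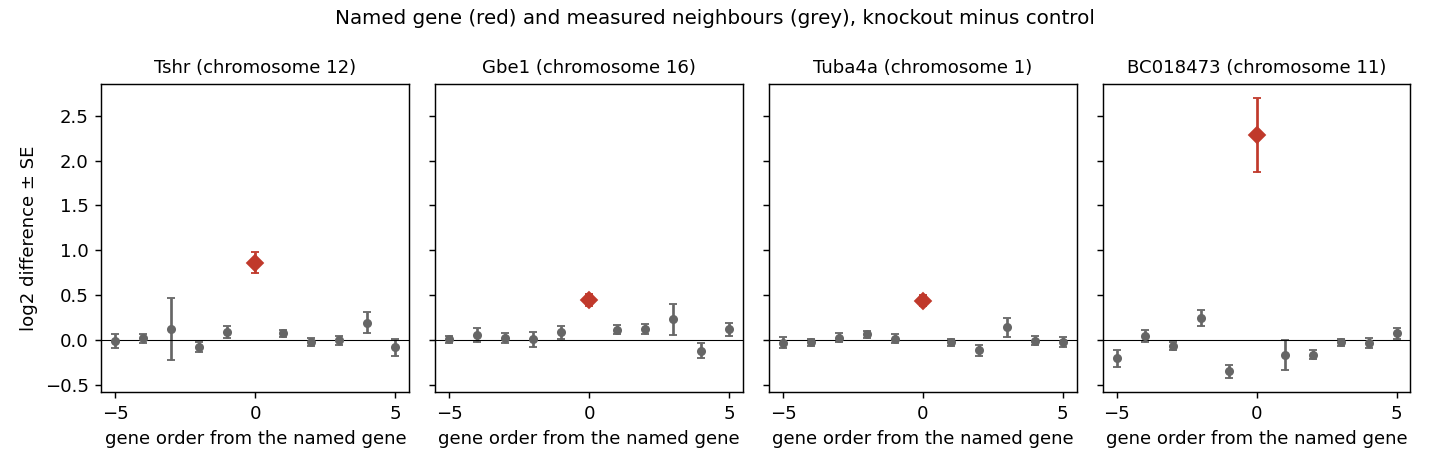
Log2 difference, knockout minus control, with its SE for each of the 4 genes (red) and for 5 measured genes on each side in chromosome order (grey), 1 panel per gene. The 40 neighbours lie between -0.35 (St6galnac2) and 0.25 (Snhg16), and each red point lies above all neighbours in its panel. The red genes were chosen for being higher in knockouts and the neighbours were not, so their relative height is no test.

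Markers of other cells were measured beside the 4 genes. For thyroid follicular cells, the type best known for Tshr, the mean log2 signal of 9 markers was 7.55 to 7.63 in knockouts and 7.55 to 7.67 in controls, and 5 of 9 had a higher mean in knockouts. Thyroglobulin (Tg) was at 7.43 to 7.52 in knockouts and 7.33 to 7.62 in controls, and the smallest p of the list was that of Foxe1 (difference -0.09 ± 0.05, limma adjusted p = 0.910). Adipocyte markers, another type known to express Tshr, averaged 7.49 to 7.58 in knockouts and 7.46 to 7.58 in controls (4 of 7 higher, with Lpl at 0.20 ± 0.06). Skeletal muscle markers averaged 7.90 to 8.03 in knockouts and 7.91 to 8.11 in controls (2 of 8 higher, smallest p Tnnt3). These ranges overlapped almost entirely.

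Among lists of the olfactory epithelium, most mature OSN markers lay below 0 and all measured progenitor markers above it. Of 14 mature OSN markers 12 had a lower mean in knockouts (11.74 to 11.996 in knockouts, 11.76 to 12.12 in controls, median difference -0.09). At p under 0.01, 2 of 14 were lower (beside 0.601% of all clusters), S100a5 (-0.58 ± 0.12, limma adjusted p = 0.459) and Kirrel2 (-0.33 ± 0.09, limma adjusted p = 0.739). The 2 markers with a higher mean were Cnga4 (0.24 ± 0.12) and Gnal (0.04 ± 0.08). By the paper, conditional deletion of Emx2 left mature and immature OSN numbers unaffected. All 5 OSN progenitor markers had a higher mean (11.02 to 11.23 in knockouts, 10.54 to 11.09 in controls), of which Kit had the smallest p (0.17 ± 0.07, limma adjusted p = 0.910). Control 2, which stood apart along principal component 1, was the lowest control for each of these 5 markers. The median difference of the list was 0.25, and it was 0.13 in the lowest of the fits that left out 1 mouse. Immature OSN markers averaged 11.86 to 11.99 in knockouts and 11.88 to 12.05 in controls (3 of 10 higher, smallest p Gap43), and sustentacular cell markers 13.28 to 13.39 in knockouts and 13.29 to 13.37 in controls (2 of 3 higher, smallest p Cbr2). After scaling each array to the mature OSN markers, which moved the median of all clusters to 0.114, the differences were 0.97 for Tshr, 0.55 for Gbe1, 0.55 for Tuba4a and 2.40 for BC018473.

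Of the lists for tissue that dissection could include, all 6 endothelial markers (8.91 to 9.52 in knockouts, 9.11 to 9.24 in controls, smallest p Tie1) and all 6 cartilage and bone markers (10.05 to 10.45 in knockouts, 9.82 to 10.36 in controls, smallest p Ibsp) had a higher mean in knockouts, with overlapping ranges. Markers of olfactory bulb or brain neurons averaged 8.94 to 9.54 in knockouts and 8.88 to 9.38 in controls (6 of 10 higher, smallest p Gad2), glia markers 9.63 to 10.04 in knockouts and 9.71 to 9.92 in controls (4 of 5 higher, smallest p Frzb), and the 2 erythroid markers 9.05 to 9.69 in knockouts and 8.17 to 10.31 in controls (both higher, smallest p Alas2). Immune markers averaged 9.16 to 9.34 in knockouts and 9.17 to 10.20 in controls, with the highest value in control 2 (2 of 7 higher, smallest p Tyrobp). Without control 2 the differences of the 4 genes were 0.87 for Tshr, 0.43 for Gbe1, 0.42 for Tuba4a and 2.12 for BC018473. What part these cell types have in the signals of the 4 genes was not tested.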

How the data were processed

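RNA abundance was measured in 8 olfactory mucosae, 1 per array. As deposited, each value is the log2 signal of a transcript cluster, and these clusters by the study's methods merge the probe sets for all exons of a gene. Affymetrix Expression Console is the tool in the submitters' processing notes. Its version and the summarisation algorithm are not given in the sources used here. The values were not normalized further. Of 35557 clusters, 21789 carried exactly 1 gene symbol in the platform annotation, 1621 several and 12147 none. Gene order and names came from the RefSeq table of GRCm38.p6, in which 21698 of the clusters were found. No coordinates are given for clusters, since no build is named for the array.

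The groups were compared with limma (version 3.58.1, R 4.3.3; lmFit and eBayes, two-sided) with Benjamini-Hochberg adjustment over the 21789 clusters and a threshold of 0.05. The fit was tested on simulated data. Replicate numbers follow deposition order and pair no mice. Alternatives were scaling to 14 mature OSN markers, quantile normalization, the Y-linked signal as covariate, array weights, only controls with Cre, the methods' t-test, clusters above the median signal, and leaving out each mouse.

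Named genes were the 4 genes, Emx2, the gene of smallest p and any at p under 0.01 in each list, all alpha-tubulins, the nearest neighbours and any at p under 0.01, and the 3 most alike by r. Lgr4, Fshr, Tshb, Cga, Gphb5, Pde4a, Ttr, Stmn4, Tg, Robo2, Mxra7, Snhg16, Kirrel2, Cnga4, Gnal, Xist, Omp, the genes at the threshold and the GC box were added after their values were seen. The 4 genes, the lists and the tests were chosen with earlier results of these data known. The number of arrays limits the precision, and because litters are unnamed, p-values measure only the spread between these mice.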

Additional observations from a re-analysis of the deposited data

Results flagged for a closer look

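Within groups of 4 mice, 84 groups (42 genes and list means) were checked for a mouse far from the others, as the gap to the nearest mouse divided by the range of the group, and 8 exceeded Dixon's critical value for groups of this size. Chance gives about 1 in 20.

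Among the 4 genes, knockout 3 stood apart for Gbe1 (10.81, next knockout 10.55, ratio 0.947) and control 4 for Tuba4a (11.05, next control 10.86, ratio 0.835). Without knockout 3 the Gbe1 difference was 0.37, and without control 4 the Tuba4a difference was 0.49. Control 4 was also the low control for Prkar2b (10.38, next 10.46, ratio 0.832), and knockout 4 the low knockout for Tuba1a (13.90, next 13.97, ratio 0.92).

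Among the list means, knockout 3 was the high knockout for OSN progenitor markers (11.23, next 11.04, ratio 0.88) and for Y-linked genes (10.72, next 7.51, ratio 0.874). Control 1 was the low control for Y-linked genes (8.09, next 10.53, ratio 0.963), and control 2 the high control for immune markers (10.20, next 9.24, ratio 0.936).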

How the results depend on the processing

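Because the 4 genes were chosen for complete separation, leaving out mice cannot turn their differences, and the ranges below give sizes only. Leaving out each mouse in turn gave 0.75 to 0.93 for Tshr, 0.37 to 0.47 for Gbe1, 0.40 to 0.49 for Tuba4a and 2.01 to 2.71 for BC018473, and the other settings gave 0.83 to 1.00, 0.41 to 0.55, 0.40 to 0.55 and 1.65 to 2.40. Scaling to mature OSN markers moved Gbe1 to 0.55 and Tuba4a to 0.55, and it moved the median of all clusters by a like amount (0.00235 without it, 0.114 with it). The Y-linked covariate moved Gbe1 to 0.54. Counts over all clusters depended more on the setting. Scaling to mature OSN markers gave 2 adjusted calls, 324 clusters higher and 33 lower at p under 0.01, and 982 with all knockouts above all controls. The Y-linked covariate gave 59 lower, array weights 5 adjusted calls and 198 lower, and the controls with Cre alone 61 lower and 699 separated. Clusters above the median signal, which are fewer, gave 2 adjusted calls, 81 higher, 82 lower and 225 separated. Leaving out each mouse gave 0 to 1 adjusted calls (1 without control 3), 78 to 214 higher, 57 to 184 lower and 486 to 1001 separated. Comparing fewer clusters or mice changes such counts by itself, and with fewer mice complete separation is easier to reach. Scaling to mature OSN markers shifted all clusters of an array by the same amount, and so all differences alike. Other causes of these changes were not tested.

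Of 335 values of 23 named genes, 313 kept their sign and 22 turned it. Scaling to mature OSN markers turned Tubb2b (0.0035), Tuba1a (0.1066), Tuba3a (0.1085) and Dnajb2 (0.0847). Quantile normalization turned Tuba3a (0.0206), the Y-linked covariate Tuba3a (0.0537), array weights Stk16 (-0.0088), and the controls with Cre alone, or equally leaving out control 4, Tuba1a (0.0040), Tuba3a (0.0128) and Tuba3b (-0.0472). Over all 8 fits that left out 1 mouse, values ran from -0.0470 to 0.0286 for Tuba3a, -0.0139 to 0.0119 for Tuba1a, -0.0472 to 0.1216 for Tuba3b, -0.0244 to 0.0336 for Stk16 and -0.0244 to 0.0890 for Tubal3. Of 312 list medians 14 moved beyond the spread, 12 of them under scaling to mature OSN markers and 1 without control 2 (immune markers, 0.0995). Each of the 4 genes has 1 cluster, so the alternative of using another cluster gave no value. No paired analysis was possible because replicate numbers follow deposition order and the labels name no litter. Array background was not measured here, so no limit of detection can be given for low signals such as those of Tshr, Tshb and Rxfp1.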
